A study of Mus musculus with 12 samples.

Results

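Semaphorins and plexins that cells of the oligodendrocyte lineage are known to express were followed here across mice with and without the small GTPases RalA and RalB in that lineage. The set held 10 genes of the 35675 in the annotation, taken by gene symbol from a list chosen with earlier results of these data known. It held the ligands Sema3b, Sema3c, Sema3d, Sema4d, Sema6a, Sema6d and Sema7a and the receptors Plxna4, Plxnb1 and Plxnb3. RNA was sequenced from spinal cord cells of mice aged 10 postnatal days. RalAB cKO mice carried CnpCre, RalA flox/flox, RalB flox/flox and the reporter Rosa26-StopFlox-TdTomato. RalA cKO mice carried CnpCre, RalA flox/flox and the same reporter. Control mice carried CnpCre and the reporter but no floxed Ral allele, so Cre and tdTomato were common to all 3 groups. Each group had 4 mice and each mouse gave 1 library. CnpCre is driven from the Cnp locus, which is active in myelinating glia, so the reporter marks that lineage and not oligodendrocytes alone. Cells were taken by flow cytometry as tdTomato-positive events of large forward scatter, and the result is an enriched population rather than a pure one.

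Semaphorins are guidance proteins that share a sema domain. Class 3 members are secreted, classes 4 and 6 span the membrane, and Sema7a is held at the surface by a lipid anchor. They are read by plexins, whose intracellular part acts as a GTPase-activating protein for small GTPases of the Rap and R-Ras type, and secreted class 3 ligands usually need a neuropilin as a second receptor. In the central nervous system oligodendrocytes are a source of several of these ligands, among them Sema4d, which inhibits axon growth, and Sema6a, which has been linked to oligodendrocyte maturation in mice.

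Libraries held 10.93 to 15.44 M estimated counts. Levels of single genes are given as CPM, counts per 1 M counts after TMM scaling, and comparisons between genes as TPM, which also divides by transcript length. Fold changes are log2 ± standard error with 4 mice per group, and a gene was called when its edgeR quasi-likelihood p, adjusted by Benjamini-Hochberg over all 13456 tested genes, was under 0.05. The targeted genes were measured first, and values of single libraries are in the order of mice 1 to 4 throughout. Rala had 42.9, 32.2, 39.8 and 36.1 CPM in RalAB cKO mice, 33.1, 42.4, 42.7 and 41.8 CPM in RalA cKO mice, against 35.5, 59.3, 47.0 and 56.3 CPM in control mice. It was not called in RalAB cKO (-0.39 ± 0.15, adjusted p = 0.0832) or in RalA cKO (-0.31 ± 0.15, adjusted p = 0.236). With effective transcript lengths as offsets it was called in both, at -0.63 (adjusted p = 0.00398) and -0.58 (adjusted p = 0.0305). In TPM every mutant mouse lay below every control mouse, while the mutants overlapped each other, with means of 22.1 ± 4.33 in RalAB cKO and 21.8 ± 2.98 in RalA cKO against 37.2 ± 3.65 in control (SD, n = 4 each). Ralb had 14.0 to 17.2 CPM in RalAB cKO and 13.4 to 17.5 CPM in RalA cKO, where it was not targeted, against 15.1 to 23.3 CPM in control. It was not called in RalAB cKO against control (-0.28 ± 0.15, adjusted p = 0.216) and did not separate RalAB cKO from RalA cKO (0.03 ± 0.15, adjusted p = 0.936). Counts summed over a whole gene also include exons outside a deleted segment, and no source used here names the deleted exons.

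The 12 oligodendrocyte marker genes summed to 97000 to 125000 CPM in RalAB cKO, 110000 to 129000 CPM in RalA cKO and 93500 to 121000 CPM in control, with none at 0. The 12 microglial markers summed to 1090 to 1980 CPM in RalAB cKO, above 168 to 278 CPM in RalA cKO and 247 to 536 CPM in control. The labels do not state the sex of the mice. The 4 Y-linked genes Ddx3y, Eif2s3y, Kdm5d and Uty summed to over 10 CPM in 2 RalAB cKO, 3 RalA cKO and 2 control libraries, and to under 1 CPM in 2, 0 and 2. RalAB cKO 3 (49.9 CPM), RalA cKO 2 (8.58 CPM) and control 2 (13.2 CPM) also had 10.4, 227 and 116 CPM of Xist, which is transcribed from an inactive X chromosome. The Y-linked reads were therefore unevenly spread over the groups. With them as a covariate, Sema6a and Sema6d and, outside the set, Sema4f, Nrp1, Pak1, Cdk5 and Rhod lost their calls in RalA cKO against control (adjusted p = 0.0742 to 0.218), and Sema3e lost its call between the mutants (adjusted p = 0.0636).

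Expressed per length, Sema4d led the set in every group and the class B receptor Plxnb3 and the ligand Sema6a came next. Sema4d averaged 2953 ± 374 TPM in RalAB cKO, 2675 ± 148 TPM in RalA cKO and 3098 ± 434 TPM in control, and ranked 32 among all genes by its mean over the libraries. Much of that level came from 1 short transcript, Sema4d-204, which is described with the gene below. Sema6a stood at 287 ± 43.4, 256 ± 51.1 and 450 ± 70.2 TPM in RalAB cKO, RalA cKO and control. Plxnb3 stood at 438 ± 34.9, 345 ± 12.5 and 351 ± 44.4 TPM in the same groups. Plxnb3 was above Sema6a without overlap in both mutants, while in control the order was turned, with Sema6a above Plxnb3 and overlapping values.

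A middle tier held Sema6d and Sema7a. Sema6d averaged 39.8 ± 6.56 TPM in RalAB cKO, 22.7 ± 4.86 TPM in RalA cKO and 43.2 ± 10.4 TPM in control, and Sema7a averaged 32.9 ± 7.43, 64.1 ± 2.03 and 34.4 ± 3.68 TPM. The values of the pair overlapped in RalAB cKO and in control, and in RalA cKO Sema7a lay above Sema6d without overlap. Plxnb1 followed at 12.1 ± 4.01, 14.1 ± 1.27 and 14.7 ± 3.56 TPM, and its values overlapped those of Sema3d in each group. Sema3d averaged 9.92 ± 2.08, 10.1 ± 3.51 and 10.1 ± 1.86 TPM. Sema3b, Plxna4 and Sema3c were lowest. Sema3b reached 4.4 ± 1.22 TPM in RalAB cKO and 4.88 ± 3.83 TPM in RalA cKO against 0.828 ± 0.399 TPM in control, and Plxna4 and Sema3c had group means of 0.197 to 0.448 TPM with overlapping values. This last pair was thus barely detected in the sorted cells.

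Of the 10 genes 9 passed the count filter, and Sema3c did not. Against control, 2 of the 9 were higher in RalAB cKO, Sema3b and Plxnb3, and 1 was lower, Sema6a. Over all tested genes 9.39% were higher and 9.02% lower in that comparison. In RalA cKO 2 were higher than in control, Sema3b and Sema7a, and 2 were lower, Sema6a and Sema6d, where 1.71% of all tested genes were higher and 1.07% lower. Both comparisons used the same 4 control mice. Set directly against RalA cKO, RalAB cKO had 1 higher gene, Sema6d, and 2 lower, Sema7a and Plxnb1, against 7.03% higher and 4.5% lower of all tested genes. Because the genes were chosen with earlier results of these data known, the shares describe the set and do not test it.

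The group ranges were apart for 3 of the 9 genes in RalAB cKO against control, for 3 in RalA cKO against control and for 4 in RalAB cKO against RalA cKO. Over all tested genes that share was 19.2%, 11.4% and 17.3% in the same order. The median log2 fold change of the 9 genes was 0.05, 0.12 and 0.1 and that of all tested genes -0.01, -0.02 and -0.03. Called genes of the set went in both directions in each comparison. In sorted pools of cells, fewer cells of a type and less RNA per cell cannot be told apart.

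**Figure D1:**
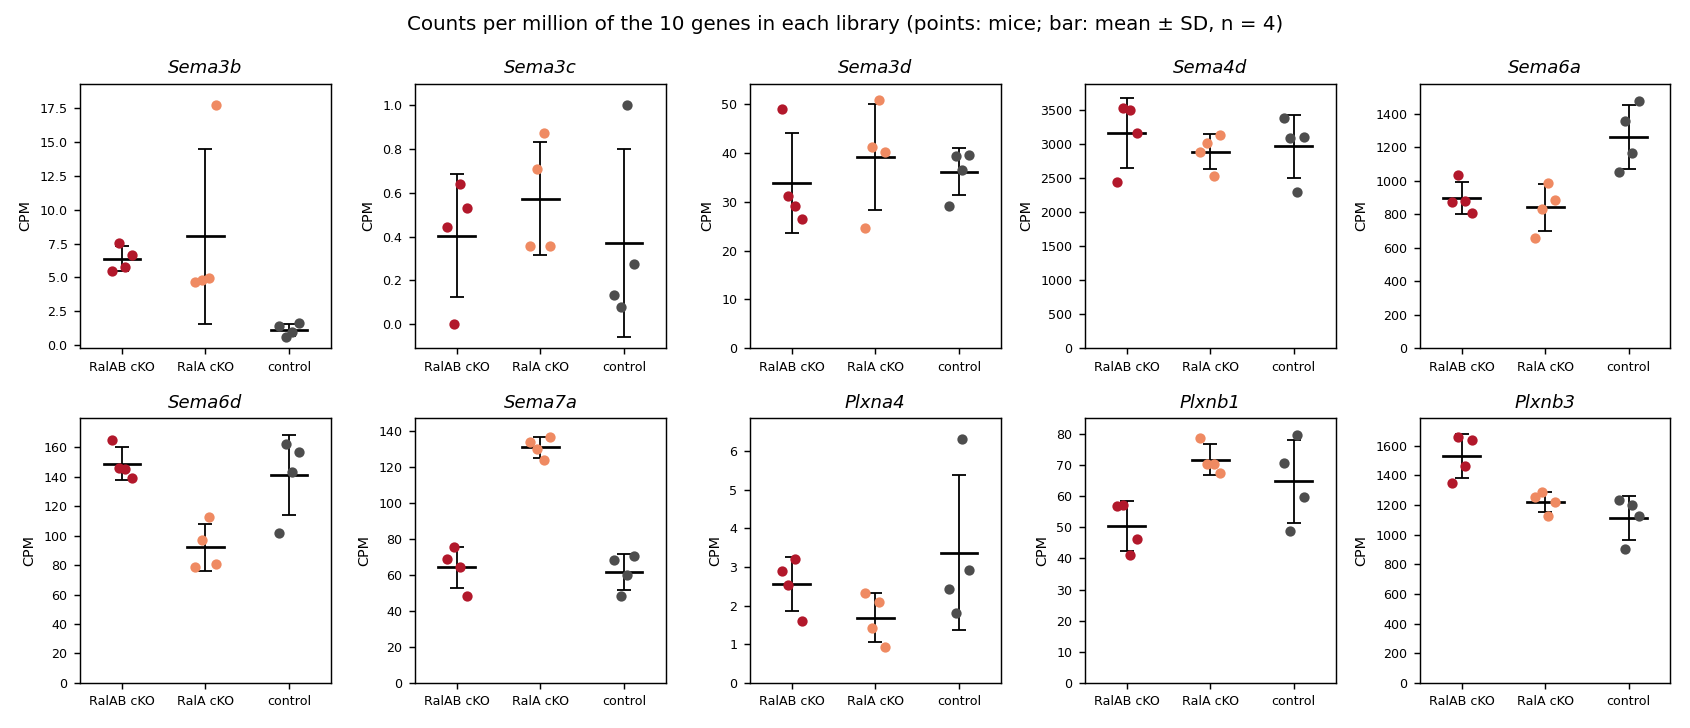
CPM of the 10 genes (vertical axes, linear) in RalAB cKO, RalA cKO and control libraries; each point is 1 mouse and the bar is the mean ± SD of 4 mice. Sema7a stands at 124 to 137 CPM in RalA cKO and at 48.4 to 75.4 CPM in RalAB cKO, Sema6a is lower in both mutants than in control, and Sema3b is higher in both with 1 RalA cKO mouse at 17.7 CPM.

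**Figure D2:**
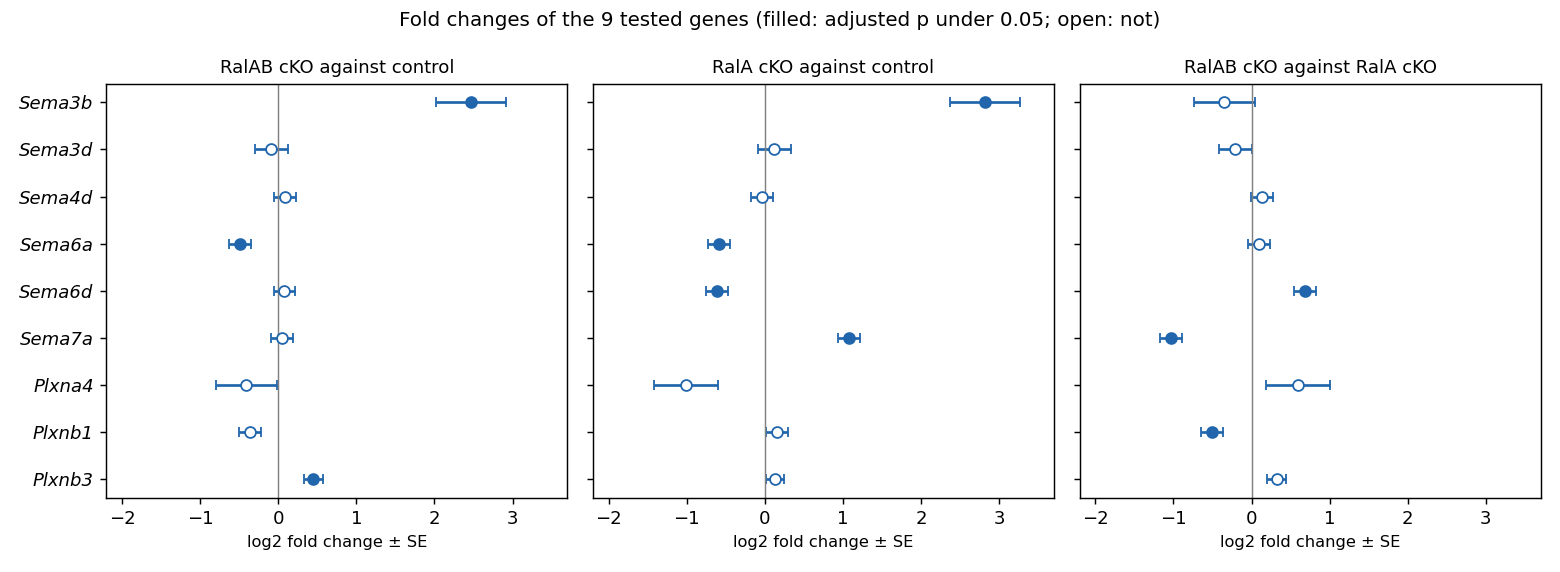
Log2 fold change ± SE (horizontal axes) of the 9 tested genes for RalAB cKO against control, RalA cKO against control and the direct comparison of RalAB cKO with RalA cKO, with filled points for genes called at an adjusted p under 0.05. Called values run from -1.03 for Sema7a in RalAB cKO against RalA cKO to 2.82 for Sema3b in RalA cKO against control.

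Among the secreted class 3 ligands of the set only Sema3b was called. Sema3b (chromosome 9, 107597674 to 107609229, minus strand, GRCm38), which signals through neuropilins and can repel axons, had 5.49, 7.51, 5.75 and 6.69 CPM in RalAB cKO mice, 4.65, 4.78, 4.98 and 17.7 CPM in RalA cKO mice, against 1.38, 0.635, 0.938 and 1.64 CPM in control mice. Every mutant mouse lay above every control mouse, and RalA cKO 4 lay far above the other 3 of its group. The fold change against control was 2.47 ± 0.45 in RalAB cKO (adjusted p = 0.00168). In RalA cKO it was 2.82 ± 0.45 (adjusted p = 0.00536) and fell to 2.07 (adjusted p = 0.00471) without RalA cKO 4. The mutants were not distinguished, at -0.35 ± 0.39 (adjusted p = 0.685), and the sign turned to 0.4 (adjusted p = 0.468) without that library. Counts were low, 72 to 92 in RalAB cKO and 52 to 249 in RalA cKO against 8 to 21 in control, and their split over the 14 annotated transcripts was unstable from mouse to mouse, with the share of Sema3b-205 at 0% to 100% in control.

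Among the genes outside the set whose log2 CPM followed that of Sema3b most closely over the 12 libraries was Cntfr, a receptor for ciliary neurotrophic factor (Pearson r = 0.97). This correlation is over mice of all 3 groups, which share the group differences, and is given as a description.

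Sema3d (chromosome 5, 12383385 to 12588948, plus strand), another secreted ligand read through neuropilin 1, was not called. It had 49.1, 31.1, 29.1 and 26.5 CPM in RalAB cKO mice, 24.6, 41.3, 50.8 and 40.2 CPM in RalA cKO mice, against 29.2, 39.3, 36.5 and 39.7 CPM in control mice. All 3 groups overlapped. Fold changes were -0.09 ± 0.21 in RalAB cKO (adjusted p = 0.821) and 0.12 ± 0.21 in RalA cKO (adjusted p = 0.771) against control.

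Sema3c (chromosome 5, 17574281 to 17730268, plus strand), a ligand known from heart outflow tract development, was close to the limit of detection. It had 6, 0, 8 and 7 estimated counts in RalAB cKO mice, 4, 8, 10 and 5 in RalA cKO mice and 2, 1, 16 and 3 in control mice. The count of 0 in RalAB cKO 2 allows up to 3 counts, or 0.245 CPM, as counting error only. It entered the fit only without the count filter, where the number of called genes of the set was the same in each comparison.

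The membrane ligand Sema4d (chromosome 13, 51685529 to 51793747, minus strand), whose receptor is Plxnb1, was the most abundant of the set and was not called in any comparison. It had 2435, 3529, 3499 and 3151 CPM in RalAB cKO mice, 2871, 3006, 2523 and 3121 CPM in RalA cKO mice, against 3378, 3077, 2289 and 3091 CPM in control mice. Each group held both high and low mice and the ranges overlapped. Fold changes were 0.09 ± 0.14 in RalAB cKO (adjusted p = 0.71) and -0.04 ± 0.14 in RalA cKO (adjusted p = 0.893) against control, and 0.13 ± 0.14 between the mutants (adjusted p = 0.67).

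More than one transcript made up the Sema4d signal. Sema4d-201, the full coding transcript of 16 exons and 4482 bases, averaged 501 ± 52.1 TPM in RalAB cKO, 434 ± 30.6 TPM in RalA cKO and 485 ± 67.7 TPM in control. Sema4d-204, a fragment of 1249 bases annotated as incomplete at its start, averaged 1512 ± 182, 1459 ± 60.5 and 1649 ± 201 TPM. The fragment thus held 51.2%, 54.6% and 53.4% of the gene's TPM on average. It is annotated as protein coding, with 555 coding bases. It shares 19 bases with Sema4d-201 and lies at the 3′ side of the gene, so its reads need not report that full form. Without it Sema4d was still not called, at 0.14 in RalAB cKO (adjusted p = 0.523) and -0.05 in RalA cKO (adjusted p = 0.843), an alternative chosen after seeing the data. Sema4d-209, a processed transcript without coding bases, averaged 360 ± 43.35, 288 ± 29.7 and 373 ± 62.1 TPM. The main transcripts of the next genes averaged 369 ± 30.6, 263.5 ± 24.2 and 286 ± 50.3 TPM (Plxnb3-201) and 204 ± 31.4, 180 ± 34.5 and 352 ± 49.1 TPM (Sema6a-206), in the same group order. Sema4d-201 thus lay above both in each group, which compares single transcripts and not the genes.

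Sema6a was lower in both mutants than in control. Sema6a (chromosome 18, 47235598 to 47368870, minus strand), a transmembrane ligand of Plxna2 and Plxna4, had 875, 1034, 880 and 808 CPM in RalAB cKO mice, 656, 834, 988 and 885 CPM in RalA cKO mice, against 1051, 1358, 1169 and 1479 CPM in control mice. The lowest control mouse lay above every mutant mouse. The fold change against control was -0.49 ± 0.14 in RalAB cKO (adjusted p = 0.0219) and -0.59 ± 0.14 in RalA cKO (adjusted p = 0.0327). The mutants differed by 0.1 ± 0.14 (adjusted p = 0.757).

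These calls were close to the threshold while the size was steady. Over all alternatives the value stayed between -0.58 and -0.4 in RalAB cKO and between -0.7 and -0.49 in RalA cKO. In RalAB cKO the adjusted p was 0.0598 without RalAB cKO 3, 0.0754 without RalAB cKO 4, 0.066 without control 2 and 0.0783 without control 4. In RalA cKO it was 0.064, 0.0952 and 0.0936 without RalA cKO 1, 2 and 4 and 0.117, 0.0516 and 0.0879 without control 2, 3 and 4. It was 0.0511 when only the 2 groups entered the fit and 0.182 with Y-linked reads as a covariate, and the part of the uneven Y-linked reads in the RalA cKO value was not tested further.

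Of the main pair of transcript forms, Sema6a-206 was the lower one in the mutants. It had 220, 237, 195 and 165 TPM in RalAB cKO mice, 148, 164, 227 and 180 TPM in RalA cKO mice, against 285, 382, 346 and 395 TPM in control mice, with no overlap of mutants and control. Its count was called lower in RalAB cKO (-0.69 ± 0.13, adjusted p = 0.0272 over 31497 tested transcripts) and missed the threshold in RalA cKO (-0.81 ± 0.13, adjusted p = 0.0564). The call in RalAB cKO was lost without RalAB cKO 1, 3 or 4 (adjusted p = 0.0629, 0.0874 and 0.103) and without control 2 or 4 (adjusted p = 0.096 and 0.0966).

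Sema6a-201 had 60.5, 45.5, 41.6 and 37.4 TPM in RalAB cKO mice, 32.7, 47.6, 49.2 and 38.5 TPM in RalA cKO mice, against 19.2, 49.8, 54.3 and 67.4 TPM in control mice. All groups overlapped, and its fold changes were 0.06 ± 0.29 (adjusted p = 0.977) and -0.01 ± 0.29 (adjusted p = 0.999) in RalAB cKO and RalA cKO. Sema6a-206 made up 69.3% to 73.9% of the gene's TPM in RalAB cKO and 67.7% to 72.5% in RalA cKO, below 77.0% to 81.1% in control. The forms differ by 51 coding bases, 1 whole exon present in Sema6a-206 (47276419 to 47276469). Sema6a-201 is also longer at its 3′ end, by 2186 bases, and at its 5′ end, by 382 bases. The difference in response between the forms was not tested, and similar transcripts share reads in such estimates. Transcripts called in either direction were 1.68% of all tested ones in RalAB cKO against control and 0.117% in RalA cKO against control.

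**Figure D3:**
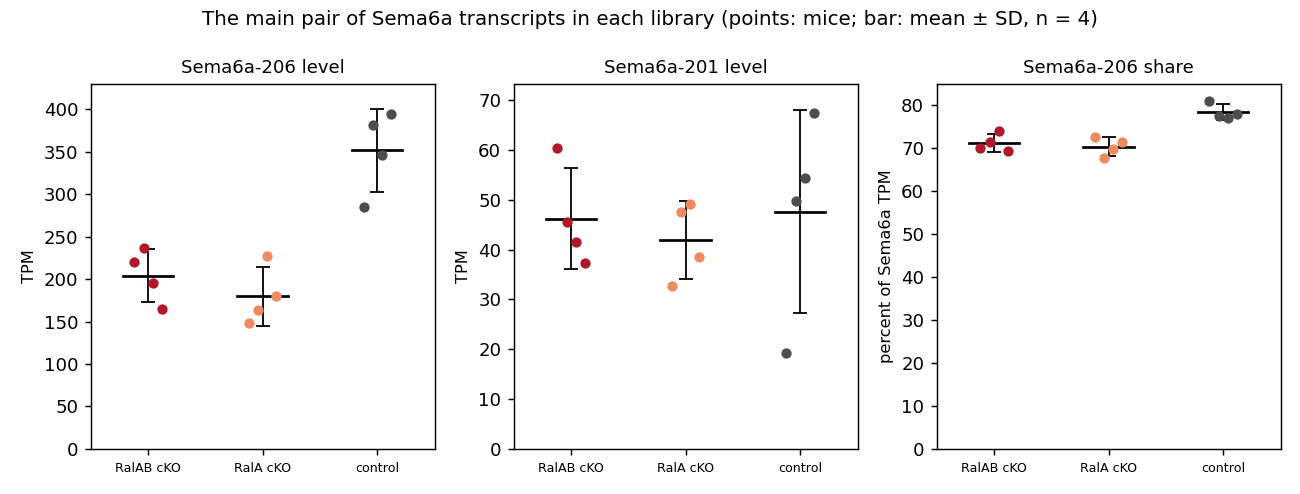
Level in TPM of Sema6a-206 and Sema6a-201 and the share of the gene's TPM held by Sema6a-206 (vertical axes, linear, from 0) in RalAB cKO, RalA cKO and control; each point is 1 mouse and the bar is the mean ± SD of 4 mice. Sema6a-206 is below control in both mutants and its share lies at 67.7% to 73.9% in mutants against 77.0% to 81.1% in control, while the values of Sema6a-201 overlap.

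Sema6d separated the mutants. Sema6d (chromosome 2, 124089969 to 124667770, plus strand), a transmembrane ligand of Plxna1, had 165, 146, 145 and 139 CPM in RalAB cKO mice, 78.4, 96.9, 113 and 80.8 CPM in RalA cKO mice, against 102, 162, 143 and 157 CPM in control mice. Every RalAB cKO mouse lay above every RalA cKO mouse, and RalA cKO overlapped control only through control 1. The difference between RalAB cKO and RalA cKO was 0.69 ± 0.14 (adjusted p = 0.0041) and was called under all 22 alternatives, at 0.61 to 0.8. RalAB cKO did not differ detectably from control (0.08 ± 0.14, adjusted p = 0.756).

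Against control Sema6d fell by 0.61 ± 0.14 on the log2 scale in RalA cKO (adjusted p = 0.0326), a call that held in 12 of 22 alternatives. Without RalA cKO 1, 2 or 4 the adjusted p was 0.0646, 0.0764 and 0.132, without RalAB cKO 2 it was 0.0509, and without control 2, 3 or 4 it was 0.124, 0.0773 and 0.0833. It was 0.0566 with only the 2 groups in the fit, 0.0544 with mouse number as a block and 0.192 with Y-linked reads as a covariate. The value itself stayed between -0.74 and -0.5. The main transcript Sema6d-206 held 66.1% ± 2.47, 61.6% ± 10.8 and 52.5% ± 11.6 of the gene's TPM in RalAB cKO, RalA cKO and control (SD, n = 4 each), and was not called. Minor forms varied and were not called either. Sema6d-203 had 0.691 to 1.67 TPM in RalAB cKO and 0 to 4.71 TPM in RalA cKO against 0 to 0.0425 TPM in control (adjusted p = 0.0538 and 0.105, edgeR). Sema6d-205 had 2.4 to 7.2, 0 to 3.65 and 5.38 to 17.3 TPM, and Sema6d-208 had 1.06 to 4.36, 0.39 to 5.26 and 3.22 to 8.46 TPM.

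Sema7a was higher in RalA cKO than in both other groups. Sema7a (chromosome 9, 57940112 to 57962865, plus strand), which is anchored in the membrane by a glycolipid and binds beta1 integrins and Plxnc1, had 68.7, 75.4, 64.4 and 48.4 CPM in RalAB cKO mice, 134, 130, 124 and 137 CPM in RalA cKO mice, against 68.4, 48.5, 59.8 and 70.7 CPM in control mice. The RalA cKO mice lay close together and far above the other 8, which overlapped. The fold change against control was 0.05 ± 0.14 for RalAB cKO (adjusted p = 0.83) and 1.08 ± 0.14 for RalA cKO (adjusted p = 0.000881). Set directly against RalA cKO, RalAB cKO was lower by 2.04-fold (-1.03 ± 0.14, adjusted p = 9.48e-05).

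Both calls of Sema7a held under all 22 alternatives, with values of 0.97 to 1.19 in RalA cKO against control and -1.12 to -0.91 in RalAB cKO against RalA cKO. With Y-linked reads as a covariate they were 1.19 (adjusted p = 0.0017) and -1.12 (adjusted p = 0.000111). The coding transcript Sema7a-201 held 94.3% to 100% of the gene's TPM in the 12 libraries. Tested alone, it was higher in RalA cKO than in control (1.06 ± 0.15, adjusted p = 0.0378). In RalAB cKO against RalA cKO its value was -1.02 ± 0.15 (adjusted p = 0.00684), a comparison in which 1.52% of all tested transcripts were called. In RalA cKO the transcript call was lost without any 1 of 10 libraries, at adjusted p of 0.0571 to 0.115, and held without RalA cKO 1 or RalAB cKO 4.

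The genes closest to Sema7a over the 12 libraries by Pearson r of log2 CPM were Inpp5j, an inositol phosphatase (0.959), Plppr3, a membrane protein of the phospholipid phosphatase-related family (0.954), and Inf2, a formin that acts on actin (0.942). The libraries share the group differences, so these values are a description only. Of the late mature oligodendrocyte list 5 of 12 genes were also higher in RalA cKO than in control and 0 lower, and in RalAB cKO against RalA cKO 8 of 12 were lower and 0 higher. In RalAB cKO against control, where Sema7a was not called, 3 were higher and 6 lower. Over all tested genes 1.71% were higher in RalA cKO than in control, and 4.5% lower in RalAB cKO than in RalA cKO. In RalAB cKO against control 9.39% were higher and 9.02% lower. The summed level of the late mature list was 3510 to 4810 CPM in RalAB cKO, 7210 to 8320 CPM in RalA cKO and 5970 to 9260 CPM in control. Whether Sema7a moves with maturation of the cells was not tested.

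Among the receptors, Plxnb3 was higher in RalAB cKO. Plxnb3 (X chromosome, 73757090 to 73772514, plus strand), a receptor of Sema5a that marks oligodendrocyte-lineage cells, had 1351, 1660, 1462 and 1640 CPM in RalAB cKO mice, 1252, 1286, 1127 and 1222 CPM in RalA cKO mice, against 1234, 903, 1200 and 1123 CPM in control mice. Every RalAB cKO mouse lay above all mice of the other groups, which overlapped. The fold change was 0.45 ± 0.12 against control in RalAB cKO (adjusted p = 0.0121), called under all 22 alternatives at 0.36 to 0.53. In RalA cKO it was 0.13 ± 0.12 (adjusted p = 0.508). Between RalAB cKO and RalA cKO it was 0.32 ± 0.12 and missed the threshold (adjusted p = 0.0887), although DESeq2 (adjusted p = 0.0343), voom with quality weights (0.0185) and library totals alone (0.0324) called it.

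The coding transcript Plxnb3-201 held 84.3% ± 3.49, 76.3% ± 5.42 and 81.1% ± 4.4 of the gene's TPM in RalAB cKO, RalA cKO and control (SD, n = 4 each). Its fold change in RalAB cKO against control was 0.47 ± 0.13 and was not called (adjusted p = 0.107). Plxnb3-202, a form with a retained intron, averaged 44.7 ± 12.1 TPM in RalAB cKO and 62.9 ± 17.8 TPM in RalA cKO, with overlapping values. It was lower in RalAB cKO than in RalA cKO but not called (-0.56 ± 0.26, adjusted p = 0.517, edgeR). A scarcer form of the same annotation, Plxnb3-204, was called between the mutants in the other direction. It had 8.22, 10.7, 11.3 and 8.66 TPM in RalAB cKO mice and 4.14, 5.24, 4.13 and 4.56 TPM in RalA cKO mice, with no overlap (1.07 ± 0.2, adjusted p = 0.0223), and was named after its values were seen. The call was lost without RalAB cKO 2, 3 or 4 (adjusted p = 0.0732, 0.0804 and 0.0617) and without RalA cKO 1, 3 or 4 (adjusted p = 0.0703, 0.0692 and 0.0669).

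Plxnb1 was lower in RalAB cKO than in RalA cKO. Plxnb1 (chromosome 9, 109095389 to 109119917, plus strand), the receptor of Sema4d, had 56.9, 57.2, 41.2 and 46.2 CPM in RalAB cKO mice, 78.8, 70.3, 70.4 and 67.4 CPM in RalA cKO mice, against 70.8, 48.9, 79.8 and 59.6 CPM in control mice. The mutants did not overlap, and control spanned much of both. The difference between RalAB cKO and RalA cKO was -0.51 ± 0.14 (adjusted p = 0.0289). Against control the fold change was -0.36 ± 0.14 in RalAB cKO (adjusted p = 0.0903, and 0.0322 without control 2) and 0.15 ± 0.14 in RalA cKO (adjusted p = 0.56).

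The Plxnb1 call between the mutants was sensitive to scaling. With transcript length offsets the value was -0.3 (adjusted p = 0.425) and with library totals alone -0.48 (adjusted p = 0.0954). The adjusted p was 0.101 and 0.0916 without RalAB cKO 3 and 4 and 0.0793 and 0.0623 without RalA cKO 1 and 2. In TPM, which includes length, RalAB cKO (7.94 to 16.7) and RalA cKO (12.6 to 15.4) overlapped.

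Plxna4 (chromosome 6, 32144268 to 32588192, minus strand), the receptor of Sema6a and a partner of neuropilin 1, was scarce. It had 2.9, 2.53, 3.2 and 1.6 CPM in RalAB cKO mice, 2.32, 1.41, 2.09 and 0.925 CPM in RalA cKO mice, against 2.42, 1.82, 6.31 and 2.91 CPM in control mice. Control 3 stood above the rest and the groups otherwise overlapped. The fold changes were -0.41 ± 0.39 in RalAB cKO (adjusted p = 0.521) and -1.01 ± 0.41 in RalA cKO (adjusted p = 0.159) against control, and 0.09 (adjusted p = 0.911) and -0.51 (adjusted p = 0.507) without control 3.

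The promoters of the called genes with a RefSeq entry near the start of their main transcript are shown, since Sema7a and Plxnb1 were both lower in RalAB cKO than in RalA cKO and Plxnb3 was higher than in control. RefSeq (GRCm38.p6) gave promoters for 7 of the 10 genes, from 250 bases before to 50 after the start, all read 5′ to 3′ on the plus strand. Capitals mark the GC box GGGCGG and the Sox motif ACAAAG on either strand, and the regions are chr9:57939862-57940161 for Sema7a, chr9:109095186-109095485 for Plxnb1 and chrX:73756853-73757152 for Plxnb3.
Sema7a: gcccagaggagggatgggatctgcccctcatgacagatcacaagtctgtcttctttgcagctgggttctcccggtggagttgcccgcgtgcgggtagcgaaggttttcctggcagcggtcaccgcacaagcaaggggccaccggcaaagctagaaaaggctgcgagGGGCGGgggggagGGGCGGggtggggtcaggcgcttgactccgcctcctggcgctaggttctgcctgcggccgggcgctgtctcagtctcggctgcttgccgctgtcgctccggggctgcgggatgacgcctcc
Plxnb1: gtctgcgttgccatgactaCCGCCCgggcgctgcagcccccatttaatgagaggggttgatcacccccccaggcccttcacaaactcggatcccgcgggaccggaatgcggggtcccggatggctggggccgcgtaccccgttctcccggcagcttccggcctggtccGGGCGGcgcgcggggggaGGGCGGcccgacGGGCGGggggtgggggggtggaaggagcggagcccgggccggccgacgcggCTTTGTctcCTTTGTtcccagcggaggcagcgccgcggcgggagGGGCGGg
Plxnb3: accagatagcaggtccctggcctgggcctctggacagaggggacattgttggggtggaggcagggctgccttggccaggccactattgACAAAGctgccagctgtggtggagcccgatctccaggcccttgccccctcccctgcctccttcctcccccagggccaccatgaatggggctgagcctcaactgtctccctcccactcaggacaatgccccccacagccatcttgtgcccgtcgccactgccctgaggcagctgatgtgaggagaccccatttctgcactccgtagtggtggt

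The Sema7a promoter held 2 GC boxes and no Sox motif, that of Plxnb1 held 5 GC boxes and 2 Sox motifs, and that of Plxnb3 held 1 Sox motif and no GC box. None of the 3 held the MYRF motif CTGGCAC or the AP-1 motifs TGACTCA and TGAGTCA. Of all 32851 promoters of that length 35.7% held the GC box, 18.7% the Sox motif, 5.0% the MYRF motif and 5.2% an AP-1 motif, each searched on both strands. GC content was 67.3%, 74.7% and 63.7% in Sema7a, Plxnb1 and Plxnb3 against a median of 52.7% over all. Sema7a had 23 CpG pairs and Plxnb1 36, and Plxnb3 had 4. A match of letters describes the window and is not a site of binding.

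As a measure for the lists that follow, 9.39% of all tested genes were higher and 9.02% lower in RalAB cKO against control. The shares were 1.71% and 1.07% in RalA cKO against control, and 7.03% and 4.5% in RalAB cKO against RalA cKO. Outside the set, 10 of 13 other semaphorins passed the filter. In RalAB cKO against control 2 were higher and 2 lower. Sema4f, a membrane ligand of glial cells, was higher at 141 CPM in RalAB cKO against 53.3 CPM in control (1.41 ± 0.14, adjusted p = 1.52e-05), and Sema4g at 93.5 against 73.4 CPM (0.35 ± 0.1, adjusted p = 0.0281), called in 14 of 22 alternatives. Sema5b was lower at 17.1 CPM in RalAB cKO against 51.7 CPM in control (-1.6 ± 0.27, adjusted p = 0.00134) and Sema4b at 2.23 against 4.86 CPM (-1.13 ± 0.3, adjusted p = 0.0155, and 0.0564 without RalAB cKO 3). In RalA cKO 1 was higher and 0 lower, Sema4f at 80.6 CPM against 53.3 CPM in control (0.6 ± 0.14, adjusted p = 0.0294, called in 15 of 22 alternatives).

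Between the mutants, 5 of the 10 other semaphorins were higher in RalAB cKO than in RalA cKO and 0 lower. Of all tested genes 7.03% were higher and 4.5% lower in that comparison. Sema4g stood at 93.5 CPM in RalAB cKO against 57.1 CPM in RalA cKO (0.71 ± 0.1, adjusted p = 0.000217) and Sema4f at 141 against 80.6 CPM (0.81 ± 0.14, adjusted p = 0.000708). Sema5a, a ligand of Plxnb3, stood at 403 CPM in RalAB cKO against 254 CPM in RalA cKO (0.66 ± 0.15, adjusted p = 0.00714). Sema3e, a ligand of Plxnd1, stood at 23.1 against 13.3 CPM (0.8 ± 0.21, adjusted p = 0.017, called in 19 of 22 alternatives).

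All 8 other plexins and neuropilins were tested. In RalAB cKO against control 1 was higher, Plxnb2, a receptor of class 4 semaphorins, at 75.4 CPM against 43.5 CPM (0.79 ± 0.17, adjusted p = 0.00451), and 0 were lower. In RalA cKO 0 were higher and 1 lower, Nrp1, the receptor of class 3 ligands, at 1.74 CPM against 3.85 CPM in control (-1.15 ± 0.3, adjusted p = 0.0486, called in 9 of 22 alternatives). Compared with RalA cKO, RalAB cKO had 3 higher and 0 lower. Plxnb2 stood at 75.4 CPM in RalAB cKO against 31.2 CPM in RalA cKO (1.27 ± 0.17, adjusted p = 0.000123), Nrp1 at 6.14 against 1.74 CPM (1.81 ± 0.29, adjusted p = 0.0005) and Plxnd1 at 10.8 against 4.61 CPM (1.23 ± 0.24, adjusted p = 0.00271).

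**Figure D4:**
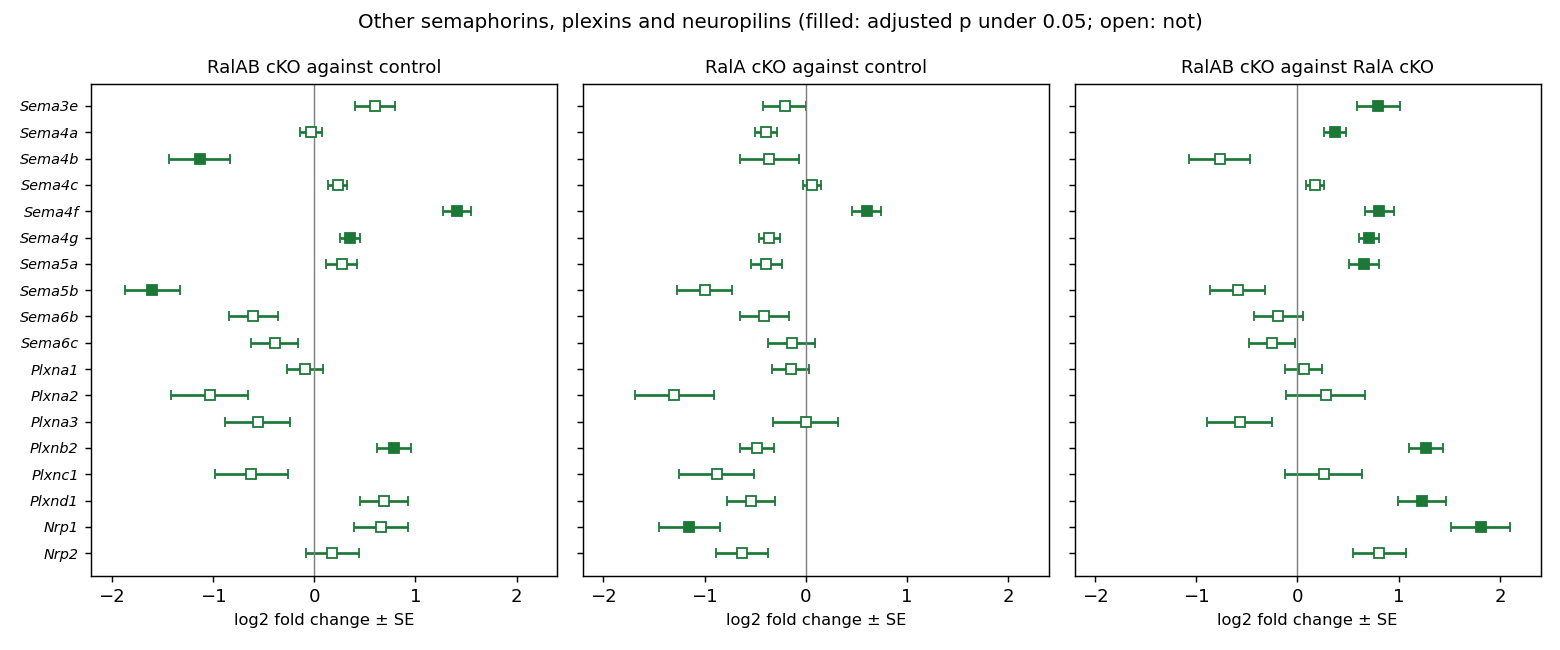
Log2 fold change ± SE (horizontal axes) of the 18 other semaphorins, plexins and neuropilins that passed the count filter for RalAB cKO against control, RalA cKO against control and the direct comparison of RalAB cKO with RalA cKO, with filled squares for genes called at an adjusted p under 0.05. Sema4f is higher in both mutants, and Plxnb2 and Nrp1 are higher in RalAB cKO than in RalA cKO.

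Among 13 semaphorin co-receptors 9 were tested. In RalAB cKO against control 2 were higher, Trem2 (2.81 ± 0.27, adjusted p = 2.02e-05) and its adaptor Tyrobp (2.69 ± 0.37, adjusted p = 0.000482), a pair known to join Plxna1 in reading Sema6d in myeloid cells. Trem2 stood at 79.5 CPM in RalAB cKO against 11.3 CPM in control and Tyrobp at 75.6 against 11.7 CPM. Ptk7 was lower at 9.02 CPM in RalAB cKO against 16.5 CPM in control (-0.88 ± 0.25, adjusted p = 0.0213, called in 17 of 22 alternatives). In RalA cKO 0 were called in either direction. Microglial markers, a list that also holds Tyrobp, rose alongside. Of the 12 markers 11 were called higher in RalAB cKO against control and 12 against RalA cKO. The part of microglia in the values of Trem2, Tyrobp, Plxnb2, Plxnd1 and Nrp1 was not tested.

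All 38 genes of the plexin signalling list were tested. Relative to control, RalAB cKO had 12 higher and 6 lower, where 9.39% of all tested genes were higher and 9.02% lower. Rnd2, a small GTPase that binds plexins, was higher at 2090 CPM against 1050 CPM in control (0.99 ± 0.16, adjusted p = 0.000633). Dpysl5, a collapsin response mediator, was lower at 72.7 against 134 CPM (-0.88 ± 0.17, adjusted p = 0.00201). Fes, a kinase found in myeloid cells that acts below plexin A, was higher (1.93 ± 0.3, adjusted p = 0.000397). In RalA cKO 3 were higher and 0 lower: Pak1 (0.69 ± 0.14, adjusted p = 0.0151), Cdk5 (0.54 ± 0.13, adjusted p = 0.0307) and Rhod (2.35 ± 0.59, adjusted p = 0.0454), called in 18, 16 and 7 of their alternatives. Rhod was scarce, at 1.66 CPM in RalA cKO against 0.308 CPM in control, with overlapping ranges. Compared with RalA cKO, RalAB cKO had 6 higher and 2 lower, with Arhgap35, a GTPase-activating protein, at 374 CPM against 252 CPM (0.57 ± 0.09, adjusted p = 0.000579).

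Of 40 other guidance genes 33 were tested. Relative to control, RalAB cKO had 1 higher and 8 lower, where 9.39% of all tested genes were higher and 9.02% lower. Omg, an oligodendrocyte myelin protein that inhibits axon growth, stood at 89.7 CPM in RalAB cKO against 197 CPM in control (-1.13 ± 0.15, adjusted p = 9.66e-05), and Rgma, a repulsive guidance molecule, at 16.7 against 38.1 CPM (-1.19 ± 0.18, adjusted p = 0.000396). Lingo1, a Nogo receptor partner, stood at 7.26 CPM against 20.7 CPM (-1.51 ± 0.26, adjusted p = 0.00112) and Robo1, a Slit receptor, at 4.08 against 9.92 CPM (-1.28 ± 0.28, adjusted p = 0.00528). In RalA cKO 0 of the 33 were called, and in RalAB cKO against RalA cKO 1 was higher and 2 lower. Of the oligodendrocyte precursor list 5 of 8 were also lower in RalAB cKO than in control and 0 higher, with sums of 2370 to 2970 CPM against 2770 to 4110 CPM. Astrocyte markers had 5 of 8 lower and 0 higher, with sums of 276 to 306 CPM in RalAB cKO against 358 to 599 CPM in control. Neuron markers had 3 of 9 tested lower and 0 higher, with sums of 26.1 to 43.9 CPM in RalAB cKO against 65.7 to 156 CPM in control. The part of these cells in the guidance genes was not tested.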

How the data were processed

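Each of the 12 libraries came from 1 mouse, 4 per genotype. The deposited files give, per transcript, estimated counts, TPM and an effective length in bases. Effective length entered only 1 alternative, and no other measure from the deposited files was used. The submitters' processing notes, without giving roles, list kallisto 0.44, Trimmomatic 0.36 and the build GRCm38.p6. Per the labels' protocols, Trizol RNA went into a stranded mRNA library kit.

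Transcripts were matched to GENCODE vM21 (GRCm38) by identifier: 121104 of 121843 matched, and the rest held 0.2185% to 0.2772% of counts. Estimated counts were summed over 35675 genes and rounded; TPM was summed. In edgeR 4.0.16 (R 4.3.3) genes with a minimum count of 10 and a total of 15 were kept, scaled by TMM and fitted with all libraries, robust quasi-likelihood F tests and Benjamini-Hochberg adjustment. Standard errors were taken as the absolute log2 fold change over the square root of F. The common coefficient of biological variation was 0.199. Library pairs of a group differed beyond sampling noise (chi-square per degree of freedom 9.09 to 39.5), so all counted as replicates. The alternatives were median-of-ratios scaling, library totals, no filter or 1 CPM in 4 libraries, DESeq2 1.42.0, limma 3.58.1 voom with quality weights, 2 groups only, mouse number as a block, length offsets, summed log2 expression of 4 Y-linked genes as a covariate, and leaving out 1 library at a time. Which Y-linked genes to sum, and the alternative without Sema4d-204, were chosen after seeing the data.

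The 10 genes and the lists were chosen with earlier results of these data known. Named were all 10 genes, Rala and Ralb, up to 4 called genes of each list and comparison with the smallest p, the 3 genes of at least 5 CPM that followed the gene with the smallest p, and transcripts with at least 10% of a gene's TPM; some genes this rule names are not reported here. Markers of 10 cell types and stages were looked at. Those of astrocytes, neurons, endothelial cells, pericytes and fibroblasts, and Schwann cells summed to 276 to 599, 26.1 to 156, 13.6 to 55.6, 8.75 to 31.7 and 69.5 to 104 CPM in a library. Newly formed oligodendrocyte genes summed to 4740 to 5180 CPM in RalAB cKO, 3610 to 4050 CPM in RalA cKO and 3880 to 4720 CPM in control. Of the 7 tested, 4 were higher and 0 lower in RalAB cKO against RalA cKO, where 7.03% of all tested genes were higher and 4.5% lower. Whether genes of the set move with this list was not tested.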

Additional observations from a re-analysis of the deposited data

Results flagged for a closer look

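Of the 30 sets of 4 mice formed by the 10 genes in 3 groups, 1 held a mouse far from the others, where chance alone gives about 1 in 20. Sema3b stood at 17.7 CPM in RalA cKO 4, and the nearest RalA cKO mouse had 4.98 CPM, a gap of 0.975 of the range of the group. RalA cKO 4 was also the deepest library, with 15.44 M estimated counts. Without it Sema3b was still higher in RalA cKO than in control, at 2.07 on the log2 scale (adjusted p = 0.00471, edgeR).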

How the results depend on the processing

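Sema3b and Sema7a in RalA cKO, Sema3b and Plxnb3 in RalAB cKO, and Sema7a and Sema6d between the mutants kept their call and direction under all 22 alternatives; calls of Sema6a, Plxnb1 and of Sema6d in RalA cKO did not, as given with each gene. Of the 9 tested genes 4 were called in RalA cKO against control, 2 with only the 2 groups in the fit or with Y-linked expression as a covariate, and 2 to 4 when a library was left out. Over all genes 374 were called in RalA cKO against control (230 higher), 1083 by DESeq2, 1736 by voom, 81 with Y-linked expression, and 85 to 947 without 1 library (947 without control 1, 103, 154 and 248 without control 2, 3 and 4, 176 and 85 without RalA cKO 2 and 4, 677 without RalAB cKO 1). In RalAB cKO against control 2478 were called, 4061 by voom, and 1605 (without RalAB cKO 4) to 3209 without 1 library; in RalAB cKO against RalA cKO 1551, and 2560 by voom. Library totals moved the median of all genes in RalA cKO to -0.138 and left 176 of 426 calls higher, but turned no called gene of the 9.

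Transcript counts were small. Of 34 tested, 1 was called in RalA cKO against control, 2 with library totals or without a filter and 0 to 3 without 1 library. In RalAB cKO against control 1 was called, 0 to 2 without 1 library. Between the mutants 2 were called, 1 to 3 without 1 library. Over all tested transcripts 0.117%, 1.68% and 1.52% were called in the same order, and such small counts describe the set and do not test it. Same-numbered mice correlated from -0.198 to 0.175, not all over 0.1, so the main fit did not pair mice by number. Such values cannot exclude that same-numbered mice were handled together. With mouse number as a block 232 genes were called in RalA cKO against control, 3 of the 9 genes, and 0, 0 and 1 transcripts in RalA cKO, in RalAB cKO and between the mutants; it ended the gene call of Sema6d in RalA cKO and no other gene call of the set, and it ended the transcript calls of Sema7a-201 in RalA cKO (adjusted p = 0.175), Sema6a-206 in RalAB cKO (0.0725) and Plxnb3-204 between the mutants (0.0706).

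Signs turned only in values that were not called. With library totals Sema3d in RalA cKO was 0, and in RalAB cKO Sema6d was -0.01, Sema7a -0.03, Sema7a-201 -0.02 and Sema6a-201 -0.01. Sema6d in RalAB cKO was -0.03 by voom and Sema3d 0.1 with length offsets. Sema6a-201 in RalA cKO was 0.01 without a filter, 0 at 1 CPM in 4 libraries and 0.04 with the block, and Ralb between the mutants was -0.03 with Y-linked expression. Without 1 library the values ran from -0.03 to 0.29 (Sema3d), -0.16 to 0.03 (Sema4d) and -0.26 to 0.25 (Sema6a-201) in RalA cKO. In RalAB cKO they ran from -0.32 to 0.01 (Sema3d), -0.03 to 0.19 (Sema4d), -0.05 to 0.16 (Sema6d), -0.04 to 0.17 (Sema7a), -0.06 to 0.15 (Sema7a-201), -0.59 to 0.09 (Plxna4) and -0.2 to 0.31 (Sema6a-201). Between the mutants they ran from -0.54 to 0.4 (Sema3b), -0.01 to 0.18 (Sema6a), -0.04 to 0.14 (Sema6a-201) and -0.03 to 0.1 (Ralb). The cause was not tested. Depth limits the values of Sema3c and Plxna4, and of Sema3b in control.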
